A study of Homo sapiens with 12 samples.

Results

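The genes described here are 10 negative regulators of mitogen-activated protein kinase (MAPK) signaling, namely the dual-specificity phosphatases DUSP1, DUSP4, DUSP5, DUSP6, DUSP8, DUSP10 and DUSP16 and the Sprouty-family genes SPRY2, SPRY4 and SPRED1. They were chosen by gene symbol as regulators known for feedback on MAPK signaling, at a time when earlier results of these data had been seen. All 10 were present among the 28901 named genes of the count table. RNA-seq was performed on ASC52telo cells, an hTERT-immortalized line of human adipose stromal cells, that carried a lentiviral shRNA against linc-ADAIN, a long intergenic non-coding RNA of human adipose, or a scramble shRNA. Cells were harvested at day 14 of adipocyte differentiation, either untreated or after 4 h of lipopolysaccharide (LPS, the bacterial endotoxin sensed by TLR4) at 100 ng/mL, which gave 4 groups of 3 libraries each: scramble, scramble + LPS, KD and KD + LPS, where KD stands for the knockdown. All groups, the controls included, shared the hTERT transgene, lentiviral transduction and medium with insulin at 1.7 µM and dexamethasone, a glucocorticoid, at 1 µM. All libraries came from 1 line and 1 experiment in triplicate, with 1 shRNA against linc-ADAIN in these libraries, so p-values measure the spread between cultures or libraries of that experiment. How much linc-ADAIN RNA each library held was not analysed here, so the KD groups rest on the sample labels alone.

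MAPKs (ERK, p38 and JNK) are switched on by phosphorylation of a threonine and a tyrosine in their activation loop, and dual-specificity phosphatases remove both phosphates. Sprouty and SPRED proteins act further upstream and dampen the signal from receptor tyrosine kinases through Ras and Raf to ERK. Many of these genes are themselves transcribed in response to MAPK activity or to stress, which closes a negative feedback loop, and DUSP1 is also known as a target of the glucocorticoid receptor and as a brake on the cytokine response to LPS in macrophages.

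The upstream sequences of the members whose results are set against each other are shown first. RefSeq promoter windows on GRCh38.p14, from 250 bases before to 50 bases after a transcript start, were found for 8 of the 10 genes, all but DUSP4 and DUSP5. The 250 upstream bases are printed 5′ to 3′ on the gene's strand. DUSP1 and DUSP8 are shown because they held a cyclic AMP response element (CRE, TGACGTCA), which is in capitals. SPRY2 and DUSP16 are shown because their levels moved the furthest after LPS in KD, in opposite directions there. Of the 3 windows found for SPRY2, 1 is printed.
DUSP1 chr5:172771196-172771445, minus strand: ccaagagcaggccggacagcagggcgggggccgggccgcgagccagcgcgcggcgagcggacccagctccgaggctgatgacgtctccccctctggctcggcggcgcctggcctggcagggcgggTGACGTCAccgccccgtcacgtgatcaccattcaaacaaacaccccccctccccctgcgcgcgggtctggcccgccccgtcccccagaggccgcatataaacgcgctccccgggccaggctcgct
DUSP8 chr11:1572272-1572521, minus strand: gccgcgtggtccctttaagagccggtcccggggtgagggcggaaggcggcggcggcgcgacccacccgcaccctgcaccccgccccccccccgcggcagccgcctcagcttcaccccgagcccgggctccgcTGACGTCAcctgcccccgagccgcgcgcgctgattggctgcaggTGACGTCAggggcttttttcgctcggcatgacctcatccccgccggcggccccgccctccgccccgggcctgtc
SPRY2 chr13:80341127-80341376, minus strand: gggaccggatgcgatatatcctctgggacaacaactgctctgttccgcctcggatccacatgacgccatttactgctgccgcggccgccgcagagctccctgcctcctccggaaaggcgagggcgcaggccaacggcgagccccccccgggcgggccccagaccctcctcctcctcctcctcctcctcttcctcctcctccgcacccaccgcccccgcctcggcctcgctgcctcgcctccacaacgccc
DUSP16 chr12:12562864-12563113, minus strand: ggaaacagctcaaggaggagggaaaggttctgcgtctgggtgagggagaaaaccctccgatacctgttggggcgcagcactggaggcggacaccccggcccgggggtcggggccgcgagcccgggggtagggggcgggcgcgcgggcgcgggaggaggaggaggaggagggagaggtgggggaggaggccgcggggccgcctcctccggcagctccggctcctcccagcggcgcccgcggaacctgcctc
The CRE reads the same on both strands. It stood once in the DUSP1 window, starting 125 bases before the transcript start, and at 2 places in the DUSP8 window, 118 and 74 bases before it. Of 35116 promoter windows of this length, 1.85% held a CRE. AP-1 sites (TGANTCA) were in 7.71% of all windows, NF-kB sites in 11.3% and CArG boxes, the core of the serum response element, in 1.29%, each searched on both strands. No window of the 8 genes matched any of these other 3 motifs, which says only that these letters are not in these windows.

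Total counts on named genes were 28381782 to 53837400 per library. All 7 LPS-response genes examined (CXCL8, IL6, CCL2, CCL20, TNFAIP3, NFKBIA and ICAM1) rose at least 2-fold after LPS in scramble and in KD, and the rises of IL6 and CCL2 were larger in KD, by 1.17 (adjusted p = 0.00014) and 1.15 (adjusted p = 0.016) on the log2 scale. The summed level of 7 adipocyte markers (ADIPOQ, PLIN1, FABP4, LPL, CIDEC, LEP and PPARG), in CPM (counts scaled to a common library size by the TMM method), was 2785 to 3908 in scramble and 3317 to 3754 in scramble + LPS, against 553 to 1640 in KD and 460 to 1079 in KD + LPS. In KD, 5 of the 7 were lower than in scramble both without and with LPS, while after LPS none of the 7 passed the test in scramble or in KD. The other 2, LPL and LEP, averaged under 1 CPM in every group. The 6 stromal markers (PDGFRA, THY1, COL1A1, DCN, LUM and ENG) summed to 4859 to 6322 CPM in scramble and 7570 to 9159 CPM in KD, and 4 of them were higher in KD without LPS, while THY1 (log2 fold change -2.37, adjusted p = 8.2e-08) and ENG (-1.36, adjusted p = 6e-06) were lower. The summed level of 5 macrophage markers was at most 69.1 CPM, that of 4 endothelial markers at most 19.0 CPM and that of 3 epithelial markers at most 0.576 CPM. PTPRC, CDH5 and EPCAM were at or near 0, but CD68 had group means of 25.4 to 60.1 CPM. In scramble, VWF averaged 9.66 CPM and PECAM1 7.44 CPM. CD68 (log2 fold change -0.78, adjusted p = 5.3e-05) and VWF (-2.12, adjusted p = 1.4e-05) were lower in KD without LPS. Both were also lower in KD with LPS (-1.25, adjusted p = 1.4e-06 and -2.77, adjusted p = 6.7e-05), as was PECAM1 (-0.72, adjusted p = 0.046). CD14 (2.69, adjusted p = 0.0014) and KDR (4.89, adjusted p = 3.4e-05) were higher in KD with LPS. The part of these marker shifts in the KD comparisons given next was not tested, and in these bulk libraries fewer cells of a type and less RNA per cell cannot be told apart.

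Levels of the 10 genes were compared with each other as CPM per kilobase of the Ensembl canonical transcript. In scramble, DUSP1 was the most abundant at 123 ± 8.73 CPM per kb (SD, n = 3), followed by SPRY2 at 57.7 ± 5.01, DUSP5 at 42.5 ± 3.02 and DUSP6 at 23.1 ± 1.66, and these 4 did not overlap. SPRED1 at 18.0 ± 1.46, DUSP10 at 16.8 ± 2.34 and SPRY4 at 16.4 ± 0.337 CPM per kb came next, and the libraries of these 3 genes overlapped. DUSP4 at 3.40 ± 0.655, DUSP16 at 0.972 ± 0.0825 and DUSP8 at 0.0564 ± 0.00901 CPM per kb were the lowest. In the LPS-treated scramble libraries, DUSP5 at 36.1 ± 3.69 CPM per kb stood above SPRY2, whose level was 20.6 ± 2.18 and overlapped that of DUSP6 at 19.3 ± 2.37. The same change of order, DUSP5 above SPRY2, was seen in KD + LPS, at 36.9 ± 2.81 and 22.0 ± 1.35 CPM per kb.

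**Figure D1:**
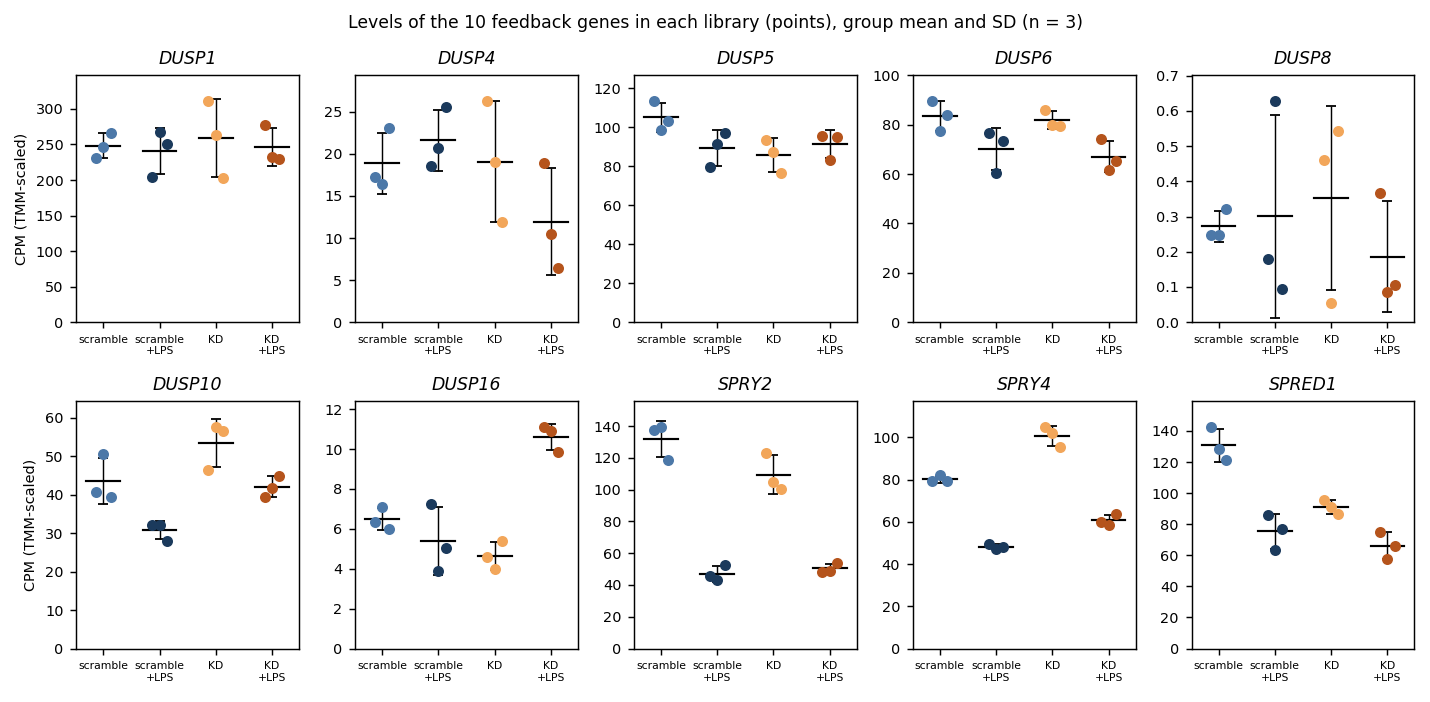
Levels of the 10 genes in CPM after TMM scaling (vertical axis, from 0 and scaled separately for each gene) in the 12 libraries, drawn as points by group, with the group mean as a horizontal bar and the SD as an error bar. SPRY2, SPRY4 and SPRED1 stand lower in both LPS groups, DUSP16 is highest in KD + LPS at 9.84 to 11.1 CPM, and DUSP1 overlaps among all 4 groups.

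Differences were tested with edgeR's quasi-likelihood F test over all genes, and a gene passed at a Benjamini-Hochberg adjusted p under 0.05. After LPS in scramble, 4 of the 10 genes were lower and none was higher, where 8.38% of 15920 genes were lower and 5.9% higher. After LPS in KD, 4 were lower and 1 was higher, where 6.03% of 16169 genes were lower and 5.32% higher. A change of at least 2-fold was found for 1 of the 10 in scramble (SPRY2) and 2 in KD (SPRY2 and DUSP16), beside 2.68% and 2.25% of all genes. The median log2 fold change of the 10 after LPS was -0.245 in scramble and -0.403 in KD, with medians over all genes of 0.02 and 0.00991.

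In KD relative to scramble without LPS, 1 of the 10 was higher and 2 were lower, beside 12.1% and 15.1% of 16217 genes. With LPS, 3 were higher and 1 was lower, beside 12.7% and 14.2% of 15981 genes. None of the 10 reached 2-fold in either of these comparisons, where 7.77% of all genes did without LPS and 8.48% with LPS. Without LPS, these shares of the 10 were near those of all genes. The comparisons without LPS and in scramble use the same 3 scramble libraries, and each other pair of comparisons that share a group likewise has libraries in common.

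**Figure D2:**
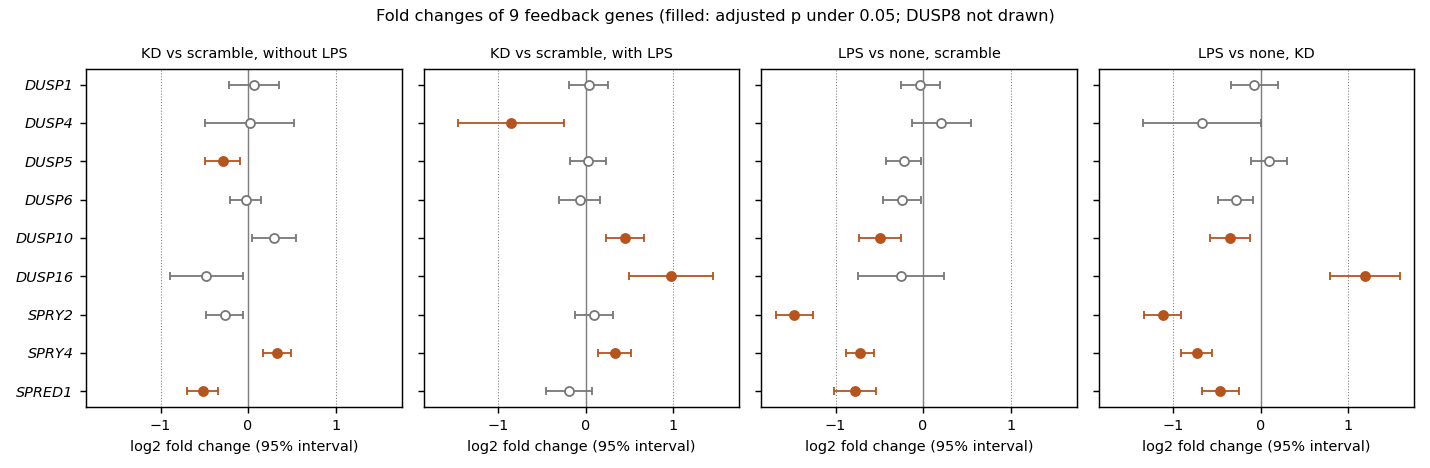
Log2 fold changes (horizontal axis) with their 95% intervals for 9 of the 10 genes in the 4 comparisons of groups, with filled points for an adjusted p under 0.05 and dotted lines at 2-fold. The LPS panels have SPRY2 furthest to the left at -1.47 in scramble and -1.12 in KD, and DUSP16 to the right in KD alone at 1.19. DUSP8, at 3 to 22 counts per library, is not drawn.

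SPRY2 encodes Sprouty2, an inhibitor of receptor tyrosine kinase signaling to ERK. Its transcript was at 138, 139 and 119 CPM in the scramble libraries and 45.6, 43.0 and 52.6 CPM in scramble + LPS. In KD it was at 123, 105 and 100 CPM, and in KD + LPS at 48.2, 49.1 and 53.9 CPM. Every LPS-treated library thus lay below every untreated one, whereas scramble and KD overlapped at each LPS state. SPRY2 fell 2.78-fold after LPS in scramble (log2 fold change -1.47, SE 0.097, adjusted p = 2.2e-06) and 2.17-fold in KD (log2 fold change -1.12, SE 0.097, adjusted p = 2.1e-06). The difference between these 2 responses, the interaction, was 0.37 on the log2 scale (95% interval 0.074 to 0.66, adjusted p = 0.29). For KD against scramble, the log2 fold change was -0.27 without LPS (adjusted p = 0.063) and 0.10 with LPS (adjusted p = 0.55).

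SPRY4, a second Sprouty that blocks activation of Ras and Raf, was at 79.2, 82.1 and 79.3 CPM in scramble and 49.3, 47.1 and 48.2 CPM in scramble + LPS. The KD libraries were at 105, 102 and 95.5 CPM and the KD + LPS libraries at 60.0, 58.4 and 63.7 CPM. The 4 groups did not overlap, in the order KD, scramble, KD + LPS and scramble + LPS from high to low. SPRY4 fell 1.65-fold after LPS in scramble (log2 fold change -0.72, SE 0.073, adjusted p = 4.8e-05) and 1.66-fold in KD (-0.73, SE 0.083, adjusted p = 3.3e-05). The interaction was 0.0042 on the log2 scale, with a 95% interval of -0.21 to 0.22. In KD, SPRY4 was 1.26-fold higher than in scramble without LPS (log2 fold change 0.33, SE 0.074, adjusted p = 0.0055) and 1.26-fold higher with LPS (0.33, SE 0.085, adjusted p = 0.010), although without KD + LPS library 3 the latter log2 fold change was 0.29 with an adjusted p of 0.052.

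SPRED1 encodes a membrane-bound relative of the Sproutys that brings neurofibromin, a Ras inactivator, to Ras. It was at 142, 129 and 121 CPM in scramble, 86.0, 63.4 and 77.1 CPM in scramble + LPS, 95.4, 91.0 and 86.6 CPM in KD, and 74.9, 57.4 and 66.3 CPM in KD + LPS. Scramble stood alone at the top, and both LPS groups lay below the KD group and overlapped each other. LPS lowered SPRED1 1.72-fold in scramble (log2 fold change -0.78, SE 0.11, adjusted p = 0.00055) and 1.37-fold in KD (-0.46, SE 0.10, adjusted p = 0.0075), and the interaction was 0.33 (95% interval 0.0064 to 0.66, adjusted p = 0.44). In KD without LPS, SPRED1 was 1.43-fold lower than in scramble (-0.52, SE 0.083, adjusted p = 0.00057). With LPS the log2 fold change was -0.19 (95% interval -0.46 to 0.073, adjusted p = 0.29).

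Among the phosphatases with a preference for ERK, DUSP6, the cytoplasmic ERK phosphatase, was at 89.5, 77.5 and 83.8 CPM in scramble and 85.9, 79.7 and 79.5 CPM in KD. After LPS it was at 76.6, 60.4 and 73.4 CPM in scramble and 74.0, 61.8 and 65.1 CPM in KD. The LPS-treated libraries lay below the untreated ones within each shRNA, but the log2 fold changes of -0.24 in scramble (95% interval -0.46 to -0.022, adjusted p = 0.14) and -0.29 in KD (-0.48 to -0.091, adjusted p = 0.060) did not pass the test. The change in KD passed it in 6 of 13 alternative settings, with adjusted p of 0.024 to 0.047, among them DESeq2 and scaling by library size alone, and that in scramble passed in 1. KD and scramble overlapped, with log2 fold changes of -0.029 without LPS and -0.069 with LPS, whose 95% intervals ran from -0.21 to 0.15 and from -0.30 to 0.16.

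DUSP5, the nuclear ERK phosphatase, was at 113, 98.9 and 103 CPM in scramble and 93.3, 87.5 and 76.4 CPM in KD. After LPS it was at 79.4, 91.4 and 97.4 CPM in scramble and 95.7, 83.4 and 95.2 CPM in KD. Each of the 3 scramble libraries was thus above every other library. DUSP5 was 1.22-fold lower in KD than in scramble without LPS (log2 fold change -0.29, SE 0.092, adjusted p = 0.034), but this call was lost in 6 of 13 alternative settings, among them the omission of any single library other than KD library 1, with adjusted p of up to 0.15. The LPS comparisons gave log2 fold changes of -0.22 in scramble (adjusted p = 0.14) and 0.093 in KD (adjusted p = 0.64).

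DUSP4, a nuclear phosphatase of ERK and JNK, was at 17.2, 16.4 and 23.1 CPM in scramble and 18.5, 20.7 and 25.6 CPM in scramble + LPS. It was at 26.3, 19.0 and 11.95 CPM in KD and at 18.9, 10.5 and 6.50 CPM in KD + LPS. Libraries of the KD groups differed more among themselves than those of the scramble groups, and all 4 groups overlapped with their neighbors. With LPS, DUSP4 was 1.80-fold lower in KD than in scramble (log2 fold change -0.85, SE 0.28, adjusted p = 0.038). The call did not hold in 6 of 13 alternative settings, which included DESeq2 (adjusted p = 0.16), scaling by library size alone (0.064) and the omission of library 2 or library 3 of either group (adjusted p of 0.064 to 0.15), and without KD + LPS library 3 the log2 fold change was -0.56. The adipocyte marker sums of these libraries were 1640, 1254 and 553 CPM in KD and 1079, 734 and 460 CPM in KD + LPS, the same order as DUSP4 within each group, whereas in scramble + LPS they were 3317, 3754 and 3495 CPM. This order was not particular to DUSP4. DUSP1 also declined with library number in both KD and KD + LPS. DUSP5, DUSP6, SPRY2, SPRY4 and SPRED1 did so in KD but not in KD + LPS, and DUSP16 in KD + LPS alone. The part of the adipocyte markers in the DUSP4 result was not tested. After LPS in KD, the log2 fold change of DUSP4 was -0.67 (95% interval -1.35 to 0.0092, adjusted p = 0.23), and the interaction was -0.86 (-1.73 to 0.011, adjusted p = 0.46). The change in KD passed the test in 3 of 13 alternative settings, among them a block for the replicate number (log2 fold change -0.73, adjusted p = 0.00016).

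DUSP1, the immediate-early phosphatase that acts on p38 and JNK as well as ERK, was at 231, 246 and 266 CPM in scramble and 204, 267 and 250 CPM in scramble + LPS. In KD it was at 311, 263 and 202 CPM, and in KD + LPS at 277, 232 and 230 CPM. All groups overlapped. The log2 fold changes were -0.031 after LPS in scramble (95% interval -0.25 to 0.19), -0.072 after LPS in KD (-0.34 to 0.20), 0.067 for KD without LPS (-0.22 to 0.35) and 0.033 for KD with LPS (-0.19 to 0.26). No bound of these intervals exceeded 0.35 in size, and the smallest adjusted p was 0.76. These values describe 1 time point, 4 h after LPS, in medium with dexamethasone.

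DUSP10, a phosphatase that prefers p38 and JNK, was at 40.7, 50.5 and 39.4 CPM in scramble and 32.0, 32.1 and 27.98 CPM in scramble + LPS. The KD libraries were at 46.3, 57.5 and 56.4 CPM and the KD + LPS libraries at 39.4, 41.8 and 44.9 CPM. The highest LPS-treated library lay below the lowest untreated one within each shRNA, and KD + LPS lay above scramble + LPS. LPS lowered DUSP10 1.41-fold in scramble (log2 fold change -0.49, SE 0.11, adjusted p = 0.011) and 1.27-fold in KD (-0.35, SE 0.11, adjusted p = 0.049). The call in scramble was lost without scramble library 2 (adjusted p = 0.073) and without scramble + LPS library 3 (0.059), and the call in KD was lost in 6 of 13 alternative settings, with adjusted p of up to 0.17 when 1 library was omitted. With LPS, DUSP10 was 1.37-fold higher in KD than in scramble (log2 fold change 0.45, SE 0.10, adjusted p = 0.0046), and without LPS the log2 fold change was 0.30 (95% interval 0.048 to 0.55, adjusted p = 0.076).

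DUSP16, which acts mainly on JNK and p38 and shuttles between nucleus and cytoplasm, was at 6.36, 7.07 and 5.99 CPM in scramble and 7.24, 3.86 and 5.04 CPM in scramble + LPS. It was at 4.58, 3.97 and 5.38 CPM in KD and 11.1, 10.9 and 9.84 CPM in KD + LPS. The KD + LPS libraries stood above all 9 others, and the KD libraries were below all scramble libraries. After LPS in KD, DUSP16 rose 2.29-fold (log2 fold change 1.19, SE 0.19, adjusted p = 0.00056), whereas in scramble its log2 fold change was -0.25 (95% interval -0.74 to 0.24, adjusted p = 0.53). Those 2 responses differed by 1.46 on the log2 scale (SE 0.30, 95% interval 0.82 to 2.09, adjusted p = 0.020). In KD relative to scramble, DUSP16 was 1.96-fold higher with LPS (log2 fold change 0.97, SE 0.22, adjusted p = 0.0049) and had a log2 fold change of -0.48 without LPS (95% interval -0.89 to -0.062, adjusted p = 0.087).

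DUSP16 was the 1 member of the 10 whose interaction passed the test, beside 0.943% of 17173 genes with a positive and 0.332% with a negative interaction. With each of the 12 libraries left out in turn, its interaction stayed between 1.27 and 1.73 on the log2 scale, but the adjusted p was between 0.050 and 0.073 in 6 of these fits, which left out scramble library 2, scramble + LPS library 3, KD library 1 or 2, or KD + LPS library 1 or 2. Its rise after LPS in KD and its higher level in KD with LPS passed the test in every such fit.

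**Figure D3:**
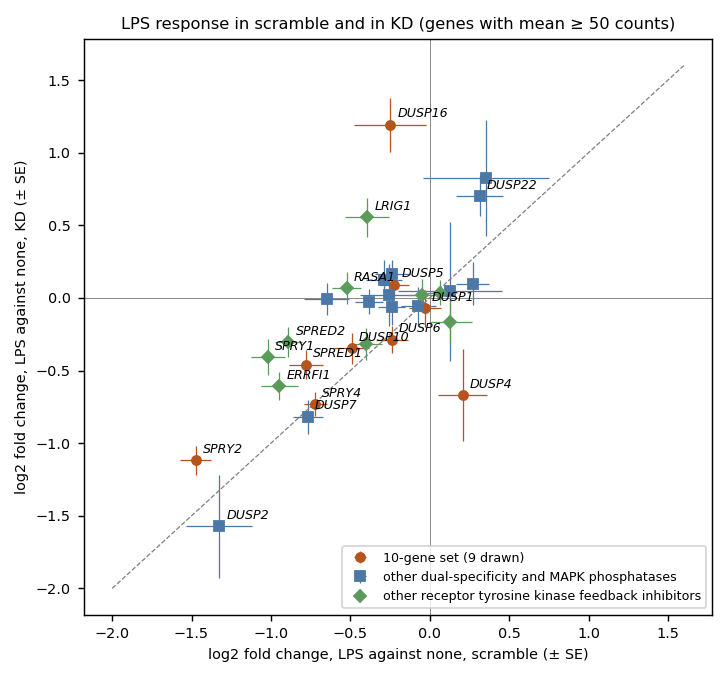
Log2 fold changes after LPS in scramble (horizontal axis) and in KD (vertical axis), each with its SE, for 9 of the 10 genes (circles), other dual-specificity and MAPK phosphatases (squares) and other receptor tyrosine kinase feedback inhibitors (diamonds) with a mean of at least 50 counts; the dashed line marks equal responses. SPRY4 lies on that line at -0.72 and -0.73, SPRY2 is at -1.47 and -1.12, and DUSP16 lies far above the line at -0.25 and 1.19.

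DUSP8, a JNK and p38 phosphatase best known from brain and heart, was barely detected, with 13, 13 and 15 counts in scramble, 7, 19 and 4 in scramble + LPS, 16, 3 and 22 in KD, and 13, 4 and 3 in KD + LPS. The groups overlapped in all comparisons. The SE of its log2 fold changes was 0.93 to 1.28, so that a change was not detectable at this depth. DUSP8 and DUSP5 have pseudogene copies, between which reads may be split in the estimated counts.

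Other genes of the same families were examined from lists chosen by function, also after earlier results of these data had been seen. Of 17 other dual-specificity and MAPK phosphatases, 4 of 14 tested were lower and none was higher after LPS in scramble (8.38% and 5.9% of all genes), and 2 of 15 were lower and 1 was higher after LPS in KD (6.03% and 5.32%). DUSP2, a nuclear phosphatase first described in immune cells, fell in both (log2 fold change -1.33, adjusted p = 0.0012 in scramble and -1.57, adjusted p = 0.0087 in KD), as did DUSP7, a close relative of DUSP6 (-0.77, adjusted p = 0.00024 and -0.82, adjusted p = 0.00024). DUSP14 (-0.65) and DUSP3 (-0.38) fell in scramble, and DUSP22, an atypical phosphatase, rose in KD (0.70, adjusted p = 0.0040). In KD relative to scramble, 2 were higher and 1 was lower without LPS, and 4 were higher and 1 was lower with LPS, of 15 tested each time (12.1% and 15.1% of all genes without LPS, 12.7% and 14.2% with LPS). The medians of the list were 0.0649 and 0.301 in KD without and with LPS, and -0.237 and 0.0449 after LPS in scramble and in KD. DUSP23 was higher in KD in both comparisons (log2 fold change 1.04 and 1.46), and so was DUSP22 (0.57 and 0.97), while STYX, a catalytically inactive relative, was lower (-0.69 and -0.50).

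Of 12 other inhibitors of receptor tyrosine kinase signaling, 5 were lower and none was higher after LPS in scramble (8.38% and 5.9% of all genes), and 2 were lower and 1 was higher after LPS in KD (6.03% and 5.32%). SPRY1 fell in both (log2 fold change -1.02, adjusted p = 6e-05 in scramble and -0.41, adjusted p = 0.046 in KD), as did ERRFI1, an inhibitor of the EGF receptor (-0.95, adjusted p = 0.00021 and -0.61, adjusted p = 0.00065). SPRED2 (-0.89) and RASA1, a Ras GTPase-activating protein (-0.52), fell in scramble, and LRIG1, which promotes the breakdown of EGF-family receptors, rose in KD (0.55, adjusted p = 0.012). The responses of SPRED2, RASA1 and LRIG1 to LPS differed between KD and scramble, by 0.60 (adjusted p = 0.030), 0.60 (adjusted p = 0.034) and 0.96 (adjusted p = 0.019) on the log2 scale. Without LPS, 5 of the 12 were lower in KD than in scramble and none was higher, beside 15.1% and 12.1% of all genes. These included SPRY1 (-0.90), RASA1 (-0.81) and the ubiquitin ligase CBL (-0.69). With LPS, 2 were lower and 1 was higher, with CBL at -0.60 and LRIG1 at 1.17. The median log2 fold change of the 12 was -0.486 for KD without LPS, -0.248 for KD with LPS, -0.398 for LPS in scramble and -0.071 for LPS in KD, with medians over all genes of 0.0243, 0.0252, 0.02 and 0.00991.

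The same background shares hold for the next 3 lists. Transcripts used as a readout of ERK activity were next examined, in a list of 12. After LPS, 6 were lower and 1 was higher in scramble, and 5 were lower and 1 was higher in KD. PLAUR, the urokinase receptor, fell in both (log2 fold change -1.40 in scramble and -1.10 in KD), as did the chromatin protein HMGA2 (-0.71 and -0.61) and FOSL1, an AP-1 subunit (-0.55 and -0.60). EPHA4 rose in scramble (0.58), and IER3, an immediate-early gene, rose in KD (0.59), with an interaction of 0.72 for IER3 (adjusted p = 0.047). In KD relative to scramble, 5 were higher and 3 were lower without LPS, and 5 were higher and 4 were lower with LPS. IER3 (1.26 and 1.98) and PHLDA1 (0.83 and 0.86) were higher in both comparisons, and EPHA4 (-0.85 and -1.23) and FOSL1 (-0.76 and -0.81) were lower in both. Without LPS, EPHA2 (2.38-fold, adjusted p = 0.019) and ETV1 (2.18-fold, adjusted p = 0.0082) were also higher in KD, by more than PHLDA1. With LPS, EPHA2 was higher at a mean of only 45.8 counts (4.70-fold, adjusted p = 0.0073), and ETV1 did not pass the test (adjusted p = 0.41).

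The kinases themselves were taken from 2 lists of 18 genes. In the ERK cascade, 3 were lower and 1 was higher after LPS in scramble, and none was lower and 1 was higher in KD. KSR1, a scaffold of Raf and MEK, rose in both (log2 fold change 1.19 and 0.69), and MAP2K1 (-0.41) and ARAF (-0.40) were among those that fell in scramble. For KD, 7 were lower and 1 was higher without LPS, and 4 were lower and 2 were higher with LPS. KSR1 was lower in both comparisons (-0.82 and -1.31), and BRAF was higher with LPS (0.44).

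In the list for the p38 and JNK cascades, which also held MAP3K8, 4 were lower and 3 were higher after LPS in scramble. In KD, 2 were lower and 3 were higher after LPS. MAP3K8, the kinase that couples TLR4 to ERK, rose in both (log2 fold change 1.45 in scramble and 1.72 in KD), as did MAP3K5 (1.57 and 1.69) and MAP3K1 (1.13 and 0.81), and MAPK13, which encodes p38 delta, fell (-1.56 and -1.56). In KD relative to scramble, 6 were lower and 2 were higher without LPS, and 1 was lower and 4 were higher with LPS. MAP3K5 was higher in both (1.10 and 1.23). MAP2K3, a kinase of p38, was lower without LPS (-0.88), and its response to LPS differed between KD and scramble by 0.75 (adjusted p = 0.0078).

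**Figure D4:**
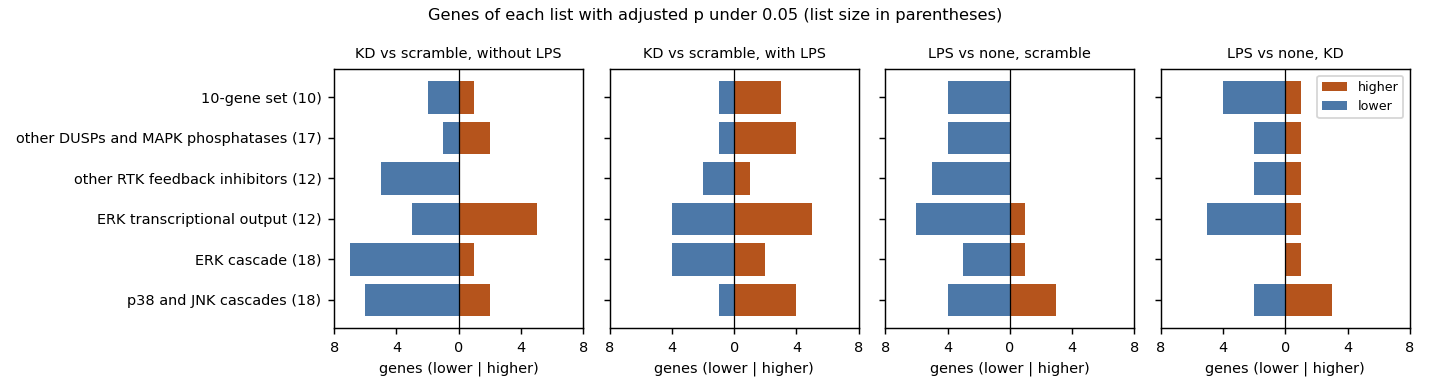
Numbers of genes with an adjusted p under 0.05 in each list (horizontal axis, lower to the left and higher to the right of 0) in the 4 comparisons, with the size of the list in parentheses. In scramble after LPS, the 10 genes have 4 lower, the other phosphatases 4 and the other feedback inhibitors 5, with none higher in any of these 3 lists.

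The genes whose pattern over the 12 libraries was most like that of a member were found among 11811 genes by the root mean square difference of centred log2 CPM. For SPRY4 these were HMGA2 (0.0953) and GTF2IRD1 (0.111). HMGA2 was at 268 ± 8.03 CPM in scramble, 162 ± 13.9 in scramble + LPS, 302 ± 6.09 in KD and 197 ± 19.3 in KD + LPS (SD, n = 3), the same order of groups as SPRY4. Since HMGA2 was picked for its likeness to SPRY4 in these same libraries, the shared order is no separate result. For DUSP6 they were PAFAH1B2 (0.0748) and COPS8 (0.0756). For DUSP1, which differed little among the groups, they were UQCRFS1 (0.111) and LGALS8 (0.112).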

How the data were processed

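RNA-seq was performed on 12 libraries of ASC52telo adipocytes in 4 groups, assigned from the sample labels. The authors pseudoaligned reads to human transcripts (GRCh38) with kallisto (0.44.0 per the labels) and deposited estimated counts per gene name, not normalized for library size or length; the annotation release is not given in the sources used here. The values were whole numbers. A row without a gene name held 0.235% to 0.306% of the counts and was left out.

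Depth was 28381782 to 53837400 counts per library, and it limits the precision of genes with few counts. In R 4.3.3, genes with at least 10 counts over the libraries of a fit were tested with edgeR 4.0.16 (TMM scaling, quasi-likelihood F test, Benjamini-Hochberg adjustment over all genes tested). Each comparison used its 6 libraries, and the interaction all 12. SEs were derived from the F statistic and the log2 fold change. CPM used 1 TMM scaling over the 12 libraries. Alternatives were DESeq2 1.42.0 (the tool of the study), scaling by DESeq2 size factors or library size, no filter or filterByExpr, a shared fit of the 12 libraries, a block for the replicate number, and omission of single libraries. The steps were tested on simulated data.

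From each list, up to 4 genes per comparison were open to naming, those with the largest log2 fold change among genes with an adjusted p under 0.05 and a mean of at least 50 counts. The members and lists were chosen with earlier results of these data known. Transcript lengths come from GENCODE 44 and promoter sequences from RefSeq (GRCh38.p14).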

Additional observations from a re-analysis of the deposited data

Results flagged for a closer look

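For 8 of the genes examined, cell type markers aside, the response to LPS differed between KD and scramble by edgeR's test of the interaction. These were 1 of the 10 members, 3 of 12 other feedback inhibitors and 1 of 12 ERK readouts. The rest were 1 of 18 genes of the p38 and JNK list and 2 of 7 LPS-response genes. None of 15 other phosphatases or 18 ERK cascade genes passed. Over all 17173 genes, 0.943% had a positive and 0.332% a negative interaction. The interaction is given as the log2 fold change in KD minus that in scramble, with its adjusted p. DUSP16 had 1.46 (adjusted p = 0.020), with a log2 fold change of 1.19 in KD and -0.25 in scramble. Its call was lost in 6 of the fits that left out 1 library. LRIG1 had 0.96 (adjusted p = 0.019), with 0.55 in KD and -0.40 in scramble. MAP2K3 had 0.75 (adjusted p = 0.0078), with -0.28 in KD and -1.01 in scramble. IER3 had 0.72 (adjusted p = 0.047), with 0.59 in KD and -0.12 in scramble. RASA1 had 0.60 (adjusted p = 0.034), with 0.068 in KD and -0.52 in scramble, and SPRED2 had 0.60 (adjusted p = 0.030), with -0.30 in KD and -0.89 in scramble. Of the LPS-response genes, IL6 had 1.17 (adjusted p = 0.00014), with 2.50 in KD and 1.34 in scramble, and CCL2 had 1.15 (adjusted p = 0.016), with 2.93 in KD and 1.79 in scramble. The adipocyte markers were lower in KD in both LPS states, and their part in these differences was not tested.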

How the results depend on the processing

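Of 50 results, 10 genes in 5 tests, 24 had the same sign and the same call at an adjusted p of 0.05 in all alternatives; 15 reversed in at least 1, all with an adjusted p above 0.05 to begin with, 6 lost the call in at least 1 and 5 gained it. The falls of SPRY2, SPRY4 and SPRED1 after LPS, the rise of DUSP16 after LPS in KD, the differences of SPRED1 and SPRY4 in KD without LPS and those of DUSP10 and DUSP16 in KD with LPS were among the 24. The number of the 10 genes under an adjusted p of 0.05 in KD without LPS, 3, was 5 without a filter on low counts, where DUSP10 and SPRY2 were added, and 2 to 5 with a library left out, with 5 without KD library 1. It was 2 to 4 in KD with LPS, with 2 without KD + LPS library 3, 3 to 4 for LPS in scramble, 4 to 6 for LPS in KD and 0 to 1 for the interaction. Genes with an interaction numbered 219 in all, 475 with DESeq2, 431 without a filter and 92 to 243 with a library left out: 92 without scramble library 2, 131 without KD library 1, and 136 and 116 without KD + LPS libraries 2 and 3. The causes were not tested.

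Scaling by library size alone moved the median log2 fold change of all genes in KD from 0.0243 to 0.129 without LPS and from 0.0252 to 0.109 with LPS. Under it, DUSP6 was at 0.075 and 0.015 in these comparisons, on the log2 scale here and below. The interaction of SPRY4 was -0.0017 with DESeq2 size factors, -0.022 with library size alone, -0.0025 with DESeq2, -0.0060 without a filter and -0.0041 with filterByExpr. With 1 library left out, values that changed sign ranged as follows. In KD without LPS, DUSP1 ran from -0.090 to 0.22, DUSP4 from -0.28 to 0.27, DUSP6 from -0.082 to 0.023 and DUSP8 from -0.096 to 0.88. In KD with LPS, DUSP1 ran from -0.070 to 0.11, DUSP5 from -0.046 to 0.098, DUSP6 from -0.17 to 0.00071 and DUSP8 from -1.61 to 0.44. After LPS, DUSP1 ran from -0.11 to 0.073 in scramble and from -0.23 to 0.074 in KD, and DUSP8 from -0.97 to 0.56 in scramble. For the interaction, DUSP1 ran from -0.20 to 0.12, DUSP6 from -0.13 to 0.033, DUSP8 from -1.99 to 0.079 and SPRY4 from -0.053 to 0.033.

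Whether samples with the same replicate number were paired could not be decided from the libraries. The correlations of their deviations from the group means were -0.14 to 0.246 over 18 pairs, with 4 over 0.1. Pairs with different numbers had -0.173 to 0.145. Not every sample correlated best with its own number, and the main fits used no replicate block. With the replicate block, DUSP4 was at -0.026 and DUSP8 at -0.017 in KD without LPS, DUSP8 was at -0.23 after LPS in scramble, and DUSP4 after LPS in KD was at -0.73 with an adjusted p of 0.00016. Reads limit DUSP8 (3 to 22 counts per library) most, and 3 libraries per group limit the precision of all values.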
